A study of Mus musculus with 8 samples.

Results

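The genes described here are 10 genes of the neurogenic lineage, Mki67, Top2a, Eomes, Neurod1, Sox4, Sox11, Igfbpl1, Draxin, Dcx and Calb2, which mark dividing progenitors and immature granule neurons of the dentate gyrus. They were taken by symbol from a table of 20802 genes, and all 10 were found. Hippocampal RNA was sequenced from 8 male C57BL/6 mice, in 2 groups of 4, Anesthesia and Control. Mice of the Anesthesia group received ketamine at 35 mg per kg intraperitoneally on each of 5 days, starting at PND16, and Control mice received saline, although the sample titles call them untreated. RNA was taken 1 week after the last injection, and the labels give PND28 for all 8 mice. The labels give no transgene or mutation for any mouse. The whole hippocampus was used, so fewer cells of a type and less RNA per cell cannot be told apart in any value below.

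The hippocampus keeps making neurons after birth. In the subgranular zone of the dentate gyrus, radial glia-like stem cells give rise to dividing intermediate progenitors, which leave the cell cycle as neuroblasts and mature into granule neurons. Mki67 and Top2a, a DNA topoisomerase, are made by dividing cells of any type. Eomes, a T-box transcription factor, marks intermediate progenitors, and Neurod1 is a basic helix-loop-helix factor needed for granule neuron differentiation. Sox4 and Sox11 are related SoxC transcription factors of newborn neurons, Igfbpl1 and Draxin, a secreted axon guidance protein, are made by neuroblasts, Dcx binds microtubules in migrating immature neurons, and Calb2 (calretinin) is a calcium-binding protein. Calb2 is also made by interneurons and mossy cells, and Dcx and Sox11 also by immature neurons of other origins, so bulk levels of these genes are not a measure of the dentate lineage alone.

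The 250 bases before the RefSeq start (GRCm38.p6) are printed for some of the genes. These are Mki67 and Top2a, genes of dividing cells, the progenitor gene Eomes and the immature neuron gene Sox11. The windows let genes of dividing cells be read beside genes of the later stages, each 5′ to 3′ on the strand of its gene. Capitals mark the motif CCAAT, which reads as ATTGG where it lies on the other strand, and the motif TTTGAA, which then reads as TTCAAA, the core of the cell cycle homology region, and these motifs do not overlap in the windows.
Mki67, chr7:135716380-135716629, minus strand: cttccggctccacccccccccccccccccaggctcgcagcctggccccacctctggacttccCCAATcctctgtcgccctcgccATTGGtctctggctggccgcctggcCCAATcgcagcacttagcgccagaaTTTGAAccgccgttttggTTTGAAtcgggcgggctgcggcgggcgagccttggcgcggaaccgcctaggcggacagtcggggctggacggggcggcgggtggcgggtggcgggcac
Top2a, chr11:99024190-99024439, minus strand: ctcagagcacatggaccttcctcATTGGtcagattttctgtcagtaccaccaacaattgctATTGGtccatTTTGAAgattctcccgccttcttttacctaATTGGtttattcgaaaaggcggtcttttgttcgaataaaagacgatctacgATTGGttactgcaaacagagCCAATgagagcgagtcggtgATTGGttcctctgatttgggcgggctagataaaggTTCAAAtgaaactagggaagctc
Eomes, chr9:118477939-118478188, plus strand: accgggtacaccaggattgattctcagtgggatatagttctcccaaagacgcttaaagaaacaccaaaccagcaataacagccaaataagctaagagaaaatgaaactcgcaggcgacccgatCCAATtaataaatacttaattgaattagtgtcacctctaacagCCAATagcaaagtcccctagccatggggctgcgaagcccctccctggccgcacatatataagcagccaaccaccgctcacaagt
Sox11, chr12:27342719-27342968, minus strand: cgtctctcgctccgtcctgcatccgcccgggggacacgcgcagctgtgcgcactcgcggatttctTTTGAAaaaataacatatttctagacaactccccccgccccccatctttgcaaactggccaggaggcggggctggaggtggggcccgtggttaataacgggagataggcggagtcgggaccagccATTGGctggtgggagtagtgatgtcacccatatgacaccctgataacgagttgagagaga
The window of Mki67 held 3 CCAAT and 2 TTTGAA, and that of Top2a held 6 CCAAT and 2 TTTGAA. Eomes held 2 CCAAT and no TTTGAA, and Sox11 held 1 of each. Among the windows not printed, that of the immature neuron gene Sox4 held 4 CCAAT, more than that of Mki67, and those of Neurod1 and Draxin held none. For Dcx the window ending at 143933374 held none and that ending at 143933469 held 1. Of 32851 RefSeq windows of the same length, 33.8% held at least 1 CCAAT and 10.09% held 2 or more. CCAAT was held 3 or more times by 2.79%, 4 or more by 0.84% and 6 or more by 0.06%. At least 1 TTTGAA was held by 16.0%, and 2 or more by 1.81%. These matches describe letters and not binding. Windows were found for 8 of the 10 genes, and Igfbpl1 and Calb2 had none.

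Values are counts per gene that the authors normalized with DESeq2, and they are not read counts. Groups were compared with limma on log2(normalized count + 1) over 18865 genes whose mean reached 10 or more, and all 10 genes passed that filter. Of all genes tested 0 had an adjusted p (Benjamini-Hochberg) under 0.05, 0% of the genes, and 1513 had an unadjusted p under 0.05, which is 8.02% (4.75% higher and 3.27% lower in the Anesthesia group). Totals per mouse were 18702634 to 19231119 normalized counts. The worth of 1 read was taken as the step that put most low values (under 8) within 0.1 of a whole multiple. It places the depth at roughly 15500000 to 22200000 reads per mouse. This is a rough estimate, since only 51.6% to 73.3% of low values fitted the step. Genes of the choroid plexus, tissue of the ventricle beside the hippocampus, separated the libraries: their summed level ran from 452.8 to 56960 normalized counts over Anesthesia mice and from 577.7 to 66348 over Control mice, and it was low in Anesthesia replicates 2, 3 and 4 and Control replicate 1.

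Of the 10 genes, none had an adjusted p under 0.05 from limma. An unadjusted p under 0.05 was found in 1 (Calb2), beside 8.02% of all genes tested. In none of the 10 were the values of the groups separate, against 5.04% of all genes tested (2.81% higher and 2.23% lower in the Anesthesia group). The log2 fold change was above 0 in 7 and below 0 in 3, with a median of 0.063, beside a median of -0.004 and 49.2% above 0 over all genes tested. This median changed sign with single mice, to -0.079 without Anesthesia replicate 2 and -0.029 without Anesthesia replicate 4, and it was 0.185 without Anesthesia replicate 3. For every gene except Calb2 the 95% confidence interval of the difference included 0. The width of that interval differed widely between the genes, from Sox4, where it ran from 0.850-fold to 1.14-fold, to Eomes, where it ran from 0.563-fold to 2.07-fold.

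**Figure D1:**
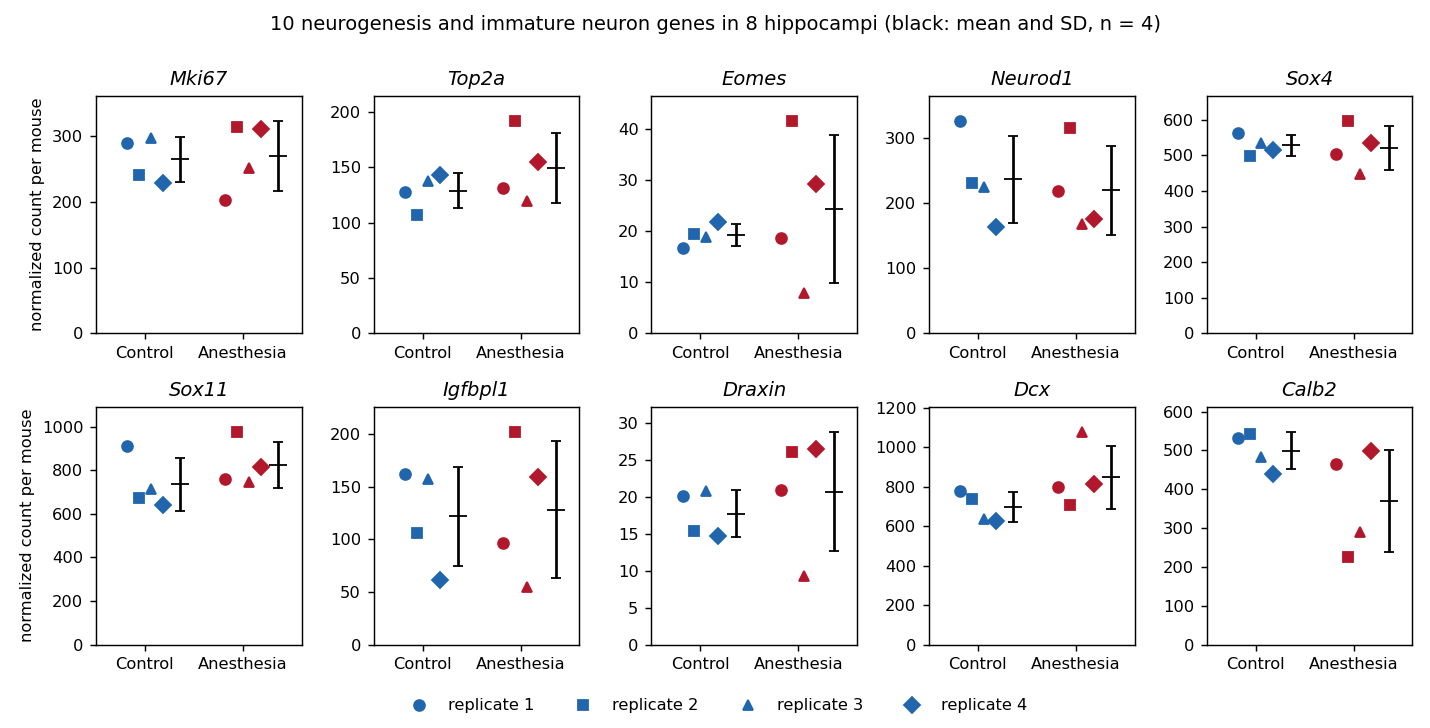
Normalized count of each of the 10 genes (y axis, from 0) in each mouse of the Control (blue) and Anesthesia (red) groups, with marker shape giving the replicate and black bars the mean and SD of 4 mice. The groups overlap in all 10 panels, and Anesthesia replicates 2 (squares) and 3 (triangles) are often at opposite ends of their group.

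**Figure D2:**
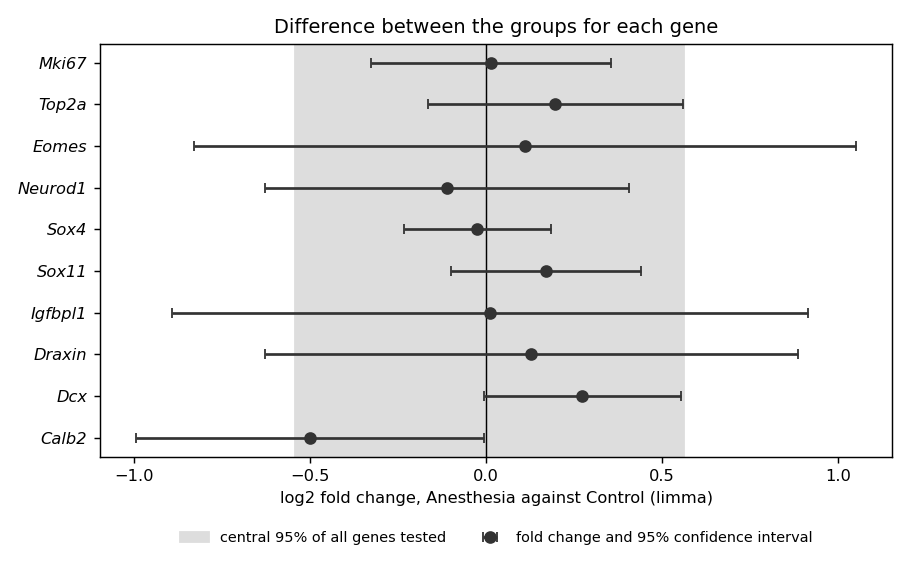
Log2 fold change of the Anesthesia against the Control group (x axis) for each gene, with its 95% confidence interval from limma. The grey band holds the central 95% of all genes tested, from -0.54 to 0.56, and the interval of Calb2 alone leaves out 0.

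Among the genes of dividing cells, Mki67 (ENSMUSG00000031004, chromosome 7, 135689784 to 135716361 on GRCm38) had close means in the groups. It had 202.8, 314.1, 251.4 and 311.9 normalized counts in Anesthesia replicates 1 to 4, and 290.6, 241.8, 298.1 and 229.1 in Control replicates 1 to 4. The highest and the lowest of the 8 mice were both in the Anesthesia group. On the log2 scale the difference was 0.014, with a standard error of the fit (SE) of 0.154 (limma adjusted p = 0.985) and an interval from 0.798-fold to 1.28-fold. Top2a (ENSMUSG00000020914, chromosome 11, 98992943 to 99024189) had 131.0, 191.8, 119.5 and 155.0 normalized counts in Anesthesia replicates 1 to 4 against 127.6, 106.9, 137.7 and 143.2 in Control replicates 1 to 4. Anesthesia replicate 2 stood highest and Control replicate 2 lowest. The log2 fold change of 0.20 (SE 0.164, limma adjusted p = 0.754) was within the spread between mice, and it was 0.069 without Anesthesia replicate 2.

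A list of 24 other cell cycle genes was read beside them, of which 21 passed the filter (Plk1, Aurkb and Ube2c did not). Of the 21, 10 had a log2 fold change above 0 and 11 below or at 0, the median was 0.00, and none had an adjusted p under 0.05. An unadjusted p under 0.05 was found in 2 of the 21, beside 8.02% of all genes tested, both higher in the Anesthesia group: Tyms, the thymidylate synthase of DNA synthesis, with 84.4 ± 20.7 against 55.8 ± 14.1 normalized counts (SD, n = 4 each; log2 fold change 0.59, SE 0.241), and Bub1, a mitotic checkpoint kinase, with 21.9 ± 11.5 against 8.59 ± 5.49 (SD, n = 4 each; log2 fold change 1.23, SE 0.504). Their adjusted p from limma was 0.620 for both, and their groups overlapped. Bub1 passed the filter only on its mean over all 8 mice, since its Control mean was under 10. It could not be tested with at least 10 in every library. The most abundant of the list, Pcna, the sliding clamp of replication, differed by -0.13 on the log2 scale (SE 0.097), and Mcm6, a replicative helicase subunit, by -0.10 (SE 0.209).

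The progenitor gene Eomes (ENSMUSG00000032446, chromosome 9, 118478212 to 118486132) was among the lowest of the 10. It had 18.7, 41.5, 7.85 and 29.1 normalized counts in Anesthesia replicates 1 to 4, and 16.7, 19.5, 18.8 and 21.8 in Control replicates 1 to 4. The Anesthesia group held both the highest and the lowest mouse, 5.28-fold apart, whereas the Control mice lay close together. The SD was 59.2% of the mean in Anesthesia mice against 10.9% in Control mice. The log2 difference of 0.11 (SE 0.425, limma adjusted p = 0.951) was 0.54 without Anesthesia replicate 3 and -0.21 without Anesthesia replicate 2. An antisense transcript, Gm33460, overlaps its exons and is not among the genes of the table. Of 8 other genes of intermediate progenitors, Neurod4 and Nhlh1 were not in the table and Tfap2c did not pass the filter, and of the 5 tested 4 were above 0 with a median log2 fold change of 0.27. The smallest p belonged to Insm1, a zinc finger factor of progenitors that delaminate, with 65.8 ± 3.42 against 48.7 ± 13.1 normalized counts (SD, n = 4 each; log2 fold change 0.47, SE 0.212, limma unadjusted p = 0.0507, adjusted p = 0.622). For Insm1 the lowest Anesthesia mouse (61.37) was just above the highest Control mouse (61.01), and the difference was 0.27 without Control replicate 3 (limma unadjusted p = 0.134). Without Control replicate 1 the median of the list was 0.030.

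Neurod1 (ENSMUSG00000034701, chromosome 2, 79452521 to 79456751) had 218.0, 315.2, 168.2 and 174.6 normalized counts in Anesthesia replicates 1 to 4. In Control replicates 1 to 4 it had 325.2, 230.0, 224.8 and 163.3. Both groups held 1 mouse above 300 and 1 below 170, so the spread within each group was larger than the difference between them. Between the groups it differed by -0.11 (log2; SE 0.233, limma adjusted p = 0.907), and by -0.24 with the mean level of the choroid plexus list as a covariate. Its exons overlap those of Cerkl on the same strand, a gene with a mean of 27.5 normalized counts, and those of the opposite-strand Gm26755, so that the value is uncertain where reads could be split.

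The SoxC genes differed from each other in how far the mice varied. Sox4 (ENSMUSG00000076431, chromosome 13, 28948919 to 28953713) had 504.4, 596.4, 447.3 and 535.9 normalized counts in Anesthesia replicates 1 to 4 against 562.9, 497.0, 535.1 and 515.9 in Control replicates 1 to 4, a range of 1.33-fold over the 8 mice. It was the steadiest of the 10 genes. Its log2 fold change was -0.025 (SE 0.095, limma adjusted p = 0.951). Sox11 (ENSMUSG00000063632, chromosome 12, 27334264 to 27342574) had 761.6, 974.3, 747.5 and 814.0 normalized counts in Anesthesia replicates 1 to 4 and 913.3, 672.9, 711.9 and 642.5 in Control replicates 1 to 4. Control replicate 1 lay among the Anesthesia mice, while the other 3 Control mice lay below all of the Anesthesia group. Between the groups Sox11 differed by 0.17 (log2; SE 0.122, limma adjusted p = 0.720), and this was 0.088 without Anesthesia replicate 2 and 0.28 without Control replicate 1 (unadjusted p = 0.0221 from limma). With the choroid plexus covariate, the mean level of that list, it was 0.066 (limma unadjusted p = 0.584).

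The neuroblast genes Igfbpl1 and Draxin varied widely between mice of one group. Igfbpl1 (ENSMUSG00000035551, chromosome 4, 45809468 to 45826923) had 97.0, 201.8, 55.1 and 159.5 normalized counts in Anesthesia replicates 1 to 4 and 162.3, 106.0, 157.1 and 61.7 in Control replicates 1 to 4. Each group held mice at both ends of this range. The means were 128.3 ± 65.1 and 121.8 ± 47.4 (SD, n = 4 each), and the log2 fold change was 0.012 (SE 0.408, limma adjusted p = 0.994). Draxin (ENSMUSG00000029005, chromosome 4, 148098437 to 148130698) had 20.9, 26.1, 9.26 and 26.4 normalized counts in Anesthesia replicates 1 to 4 and 20.0, 15.3, 20.8 and 14.7 in Control replicates 1 to 4. Anesthesia replicate 3 was the lowest of all mice and the other 3 Anesthesia mice were above every Control mouse. Between the groups Draxin differed by 0.13 (log2; SE 0.342, limma adjusted p = 0.931), and it was 0.46 without Anesthesia replicate 3.

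Dcx (ENSMUSG00000031285, X chromosome, 143855842 to 143933311) had the second smallest p of the 10 genes. It had 795.9, 707.0, 1076 and 812.1 normalized counts in Anesthesia replicates 1 to 4, and 779.8, 739.1, 635.0 and 627.1 in Control replicates 1 to 4. Of the Anesthesia mice 3 were above every Control mouse, and replicate 2 was below Control replicates 1 and 2. The log2 fold change was 0.27 (SE 0.127, 95% interval 0.995-fold to 1.47-fold; limma unadjusted p = 0.0546, limma adjusted p = 0.627). Single mice moved this value both ways, to 0.15 without Anesthesia replicate 3 (limma unadjusted p = 0.146), 0.36 without Anesthesia replicate 2 (limma unadjusted p = 0.0174) and 0.33 without Control replicate 1 (limma unadjusted p = 0.0360). With the mean level of the choroid plexus list as a covariate it was 0.17 (unadjusted p = 0.198 from limma).

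Calb2 (ENSMUSG00000003657, chromosome 8, 110137502 to 110168210) was lower in the Anesthesia group on average, with 369.6 ± 132.4 against 498.8 ± 47.9 normalized counts (SD, n = 4 each). It had 464.8, 226.7, 288.7 and 498.3 in Anesthesia replicates 1 to 4, and 533.1, 541.1, 482.5 and 438.3 in Control replicates 1 to 4. Replicates 2 and 3 of the Anesthesia group were far below the Control mice, and replicates 1 and 4 lay within them. The log2 fold change was -0.50 (SE 0.223, 95% interval 0.502-fold to 0.995-fold; limma unadjusted p = 0.0474, limma adjusted p = 0.622). The difference was -0.29 without Anesthesia replicate 2, and the unadjusted limma p ran from 0.0714 to 0.129 when any one of Anesthesia replicates 2 and 3 and Control replicates 1, 2 and 3 was left out. Other mice moved it the other way. It was -0.67 without Anesthesia replicate 4 (limma unadjusted p = 0.0103) and -0.64 without Anesthesia replicate 1 (limma unadjusted p = 0.0199). Without Control replicate 4 it was -0.56 (limma unadjusted p = 0.0489). With the choroid plexus covariate it was -0.39 (limma unadjusted p = 0.139), and with the mature granule neuron covariate described below it was -0.49 (limma unadjusted p = 0.0547).

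Other cell types that make calretinin were read beside Calb2. In a list of 10 GABAergic interneuron genes, 7 were below 0 with a median log2 fold change of -0.043, and Gad1, a GABA-synthesizing enzyme, had the smallest p (log2 fold change -0.15, SE 0.062, limma unadjusted p = 0.0410, adjusted p = 0.622). Their summed level was 11575 to 12572 normalized counts in Anesthesia mice against 12684 to 13761 in Control mice, a sum made up mostly of Gad1, Cck and Gad2, while the list medians per mouse overlapped (-0.151 to 0.03 against -0.149 to 0.091 relative to the Control mean) and none of the 10 genes of this list had groups that did not overlap. Of 4 mossy cell genes, 3 were tested and all 3 were below 0, with a median of -0.12 and the smallest p for Ociad2 (log2 fold change -0.16, SE 0.141), and the defining gene Drd2 had 12.3 ± 2.08 against 14.97 ± 10.5 normalized counts (SD, n = 4 each). Of 6 genes of Cajal-Retzius cells, early-born neurons that also make calretinin, Lhx1 and Lhx5 were not in the table, the 4 others were 2 above 0 (Reln 0.13 and Trp73 0.026) and 2 below, with a median of -0.071, and Ebf3 had 16.6 ± 5.68 against 32.2 ± 10.9 normalized counts (SD, n = 4 each; log2 fold change -0.90, SE 0.313, limma unadjusted p = 0.0155, adjusted p = 0.620). In Anesthesia replicates 2 and 3, the mice low in Calb2, the median of the interneuron list was -0.151 and 0.03 and that of the Cajal-Retzius list -0.163 and -0.87 relative to the Control mean on the log2 scale. The part of these cells in the difference of Calb2 was not tested.

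Levels were compared between genes after division by the length of the longest annotated transcript. In the Control group Calb2 was highest with 348.5 ± 33.5 normalized counts per kilobase, followed by Sox4 (110.1 ± 5.9), Sox11 (88.5 ± 14.7), Neurod1 (86.4 ± 24.5), Dcx (76.6 ± 8.4), Igfbpl1 (42.5 ± 16.6), Mki67 (26.3 ± 3.4), Top2a (24.7 ± 3.1), Eomes (5.4 ± 0.6) and Draxin (3.4 ± 0.6; SD, n = 4 for each). Sox4 and Sox11, Sox11 and Neurod1, Neurod1 and Dcx, Igfbpl1 and Mki67, and Mki67 and Top2a overlapped between Control mice. The values of Calb2 and Sox4, of Dcx and Igfbpl1, of Top2a and Eomes and of Eomes and Draxin were separate. In the Anesthesia group Calb2 had 258.3 ± 92.5 per kilobase, Dcx 93.4 ± 17.5 and Eomes 6.8 ± 4.0.

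Several of the 10 genes were high or low in the same mice. Anesthesia replicate 2 held the highest value of 6 of the 10 genes, and Anesthesia replicate 3 held the lowest value of 4. Relative to the Control mean, the median of the 10 genes on the log2 scale was 0.44 in Anesthesia replicate 2 and 0.24 in replicate 4, and it was -0.34 in replicate 3 and -0.046 in replicate 1. In Control replicates 1 to 4 it was 0.157, -0.093, 0.00 and -0.18. The spread of these medians within each group was larger than the median difference of 0.063 between the groups.

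**Figure D3:**
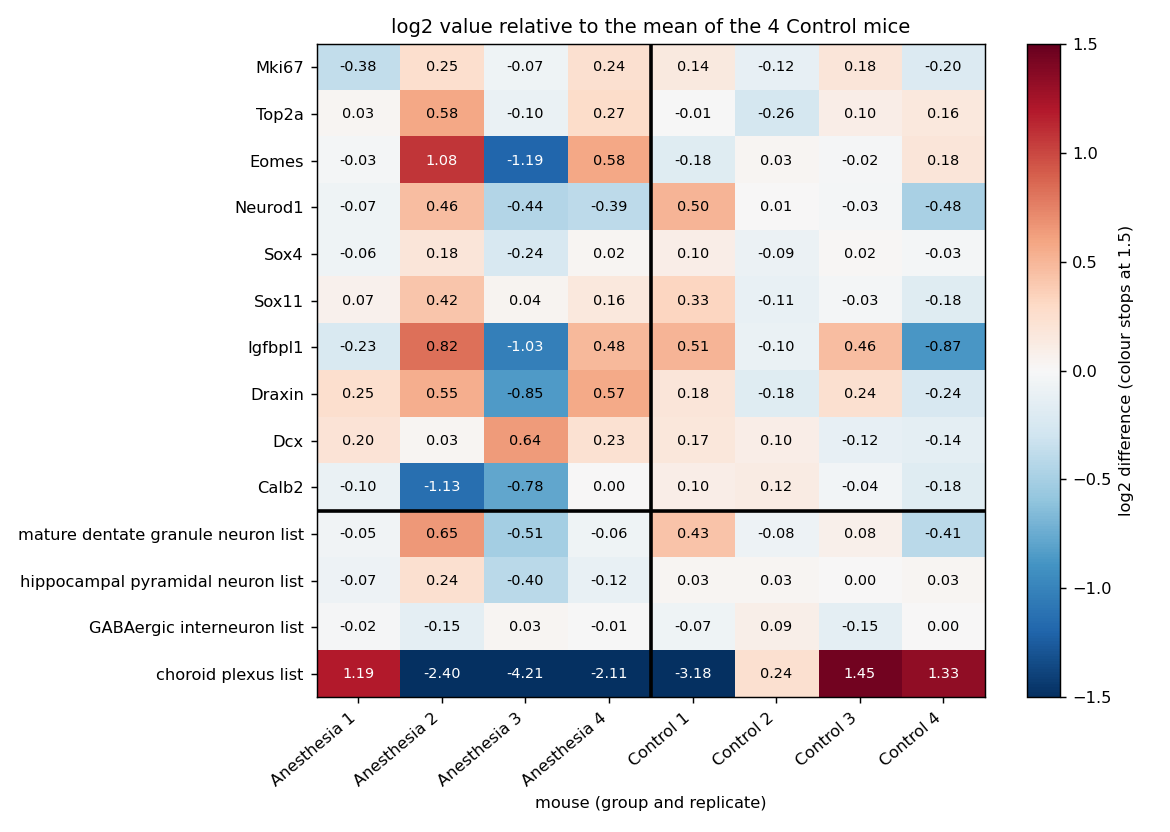
Log2 value of each gene (upper rows) and median of 4 marker lists (lower rows) in each mouse, relative to the mean of the Control mice; colour stops at 1.5. Anesthesia replicate 2 and Control replicate 1 are high, and Anesthesia replicate 3 and Control replicate 4 low, both in most neuroblast genes and in the mature dentate granule neuron list, while Dcx and Calb2 follow other patterns.

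Over the 8 mice, 31 of 45 pairs of genes had a Pearson's r above 0, with a median of 0.49, and 11 pairs had an unadjusted exact permutation p under 0.05. The share of pairs among all genes with such values was not tested, so these counts are not read as particular to the lineage. No pair passed after Benjamini-Hochberg adjustment over the 45 pairs. The closest were Igfbpl1 and Draxin (r = 0.876, Spearman's rho = 0.714, two-sided exact permutation p = 0.00298 and 0.0576, adjusted p = 0.0686 and 0.324) and Sox4 and Igfbpl1 (r = 0.857, rho = 0.905, exact permutation p = 0.00305 and 0.00456, adjusted p = 0.0686 and 0.205). Without the 2 mice farthest from the median of the gene named first in each pair, r was 0.669 and 0.665. Taken as deviations from the group means, r was 0.884 and 0.863. Mki67 and Top2a, both genes of dividing cells, had r = 0.537 (rho = 0.548, exact permutation p = 0.173 and 0.171, adjusted p = 0.338 and 0.427). Dcx had a negative r with 8 of the other 9 genes, down to -0.632 with Eomes (rho = -0.452, exact permutation p = 0.101 and 0.267, adjusted p = 0.27 and 0.501), and r was -0.0348 without the 2 mice farthest from the median of Dcx.

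**Figure D4:**
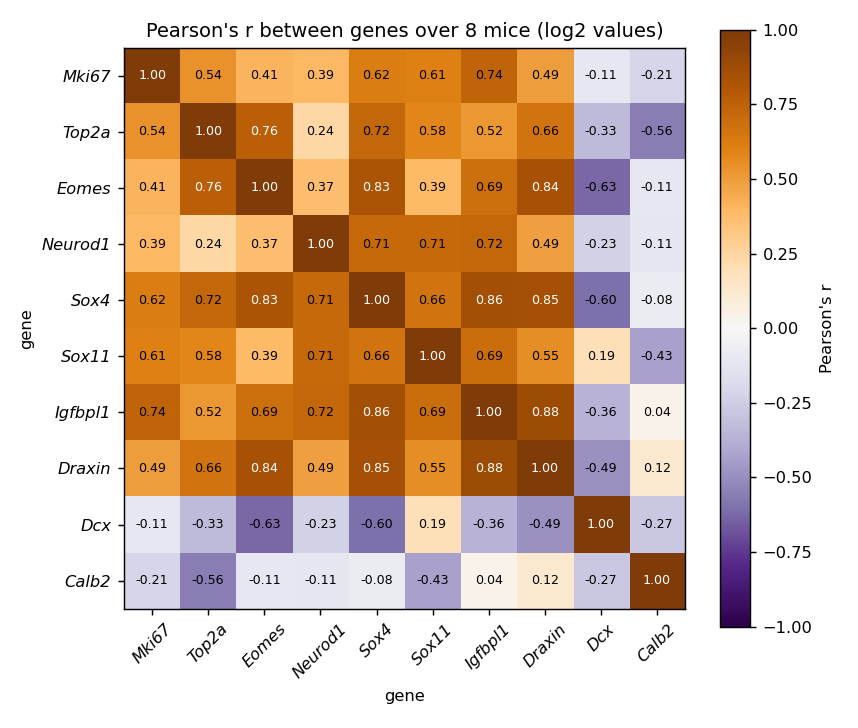
Pearson's r over 8 mice between the log2 values of each pair of the 10 genes. Orange cells (r above 0) join the genes from Mki67 to Draxin, and the rows of Dcx and Calb2 are mostly violet (r below 0); no pair passed after adjustment over the 45 pairs.

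Granule neurons are the cells that the lineage ends in, and Neurod1 is still made by mature ones. The 10 genes chosen for mature granule neurons had a median difference of -0.015 (log2), with 4 above 0. None had an unadjusted p under 0.05, beside 8.02% of all genes tested, and the smallest p belonged to Tdo2 (log2 fold change 0.33, SE 0.255). This list differed widely between mice: the granule neuron transcription factor Prox1 had 1492, 2397, 956.6 and 1675 normalized counts in Anesthesia replicates 1 to 4 and 2205, 1455, 1566 and 1141 in Control replicates 1 to 4. The desmosomal gene Dsp, a granule neuron marker, ran from 712.6 in Anesthesia replicate 3 to 2453 in Anesthesia replicate 2. The mice that were high or low in this list were largely those that were high or low in the neuroblast genes.

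Over the 8 mice, Neurod1 followed the mean log2 level of the mature granule neuron list most closely (r = 0.932, rho = 0.81, two-sided exact permutation p = 0.00176 and 0.0218, adjusted over the 10 genes 0.0176 and 0.0544). Igfbpl1 (r = 0.884, rho = 0.929, exact permutation p = 0.00461 and 0.00223, adjusted 0.0231 and 0.0223), Sox11 (r = 0.858, rho = 0.81, exact permutation p = 0.00841 and 0.0218, adjusted 0.0257 and 0.0544) and Sox4 (r = 0.835, rho = 0.833, exact permutation p = 0.0103 and 0.0154, adjusted 0.0257 and 0.0544) also had an adjusted p under 0.05 for r. As deviations from the group means the 4 values of r were 0.956, 0.885, 0.923 and 0.848. How many of all genes follow this list as closely was not tested, so these values are not read as particular to the 10 genes. The 2 mice farthest from the median of the list were Anesthesia replicate 2 and Control replicate 1. Without them r was 0.782 for Neurod1 and 0.919 for Igfbpl1, but 0.417 for Sox11 and 0.548 for Sox4. They were the highest mice in the list (0.575 and 0.389), so leaving them out also narrowed its range. Whether the relation of the SoxC genes rests on these mice therefore cannot be told. Draxin (r = 0.69), Mki67 (r = 0.621), Eomes (r = 0.556) and Top2a (r = 0.502) did not pass, with exact permutation p between 0.0601 and 0.201 (adjusted 0.12 to 0.251). Dcx (r = -0.21) and Calb2 (r = -0.228) did not pass either (exact permutation p = 0.619 and 0.624).

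When the mean level of that list was added to the limma fit as a covariate, the standard error of the log2 fold change was 0.46 times its size for Neurod1, 0.53 times for Igfbpl1, 0.58 times for Sox11 and 0.78 times for Sox4, while it was 0.98 times for Dcx and 1.01 times for Calb2. These ratios follow from the correlations with the list given above and are not a separate result. The covariate was chosen after the data were seen. With it the log2 fold change was 0.15 for Sox11 (SE 0.071, limma unadjusted p = 0.0623), -0.16 for Neurod1 (SE 0.107, unadjusted p = 0.173), -0.065 for Igfbpl1 (SE 0.218, unadjusted p = 0.772) and 0.28 for Dcx (SE 0.125, unadjusted p = 0.0484). None had an adjusted p under 0.05, and that of Dcx was 0.503.

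Genes whose log2 values over the 8 mice were most like those of Dcx, among 14252 genes with a mean of 50 or more, were Ergic1 (r = 0.984), B3glct (0.98), D430041D05Rik (0.974), Rgs7 (0.973) and Rnd1 (0.971). None of the other 9 genes was among them. For Mki67 they were Gm45555 (r = 0.968), Gm48822 (0.948), Vangl2 (0.947), Synrg (0.936) and Pcdhga11 (0.927), none of them in the cell cycle list. These values of r describe 8 points and were picked as the highest of many, so they carry no test.

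The stem cells at the start of the lineage were read from 14 genes of radial glia-like cells, most of which astrocytes also make. The log2 fold change was below 0 in 11 of them, with a median of -0.083, and 3 had an unadjusted p under 0.05, beside 8.02% of all genes tested. Thrsp, a gene of quiescent stem cells and astrocytes, had 422.1, 445.0, 354.6 and 381.0 normalized counts in Anesthesia replicates 1 to 4 against 469.9, 474.7, 531.6 and 464.2 in Control replicates 1 to 4, with all Anesthesia mice below all Control mice (log2 fold change -0.28, SE 0.092, limma adjusted p = 0.620). The intermediate filament gene Vim was also lower (log2 fold change -0.25, SE 0.098, limma adjusted p = 0.620), with overlapping groups. The glutamate transporter gene Slc1a3 had 11062 ± 233.9 against 11820 ± 143.7 normalized counts (SD, n = 4 each; log2 fold change -0.096, SE 0.043) and its groups did not overlap. In the other direction, the receptor gene Notch1 had 774.2 ± 44.97 against 689.2 ± 38.8 (SD, n = 4 each; log2 fold change 0.17, SE 0.072, limma adjusted p = 0.622), also with groups that did not overlap, but with GC and length correction the difference was 0.051 (limma unadjusted p = 0.514). In 8 astrocyte genes the median was -0.032, with Slc1a2 at 0.17 (SE 0.060, limma unadjusted p = 0.0190, adjusted p = 0.620) and Gja1 at -0.11 (SE 0.049, groups not overlapping).

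At the other end of the stages, the median log2 difference of 18 further immature neuron genes was 0.063, with 13 above 0 and 5 below, and 3 of 18 had an unadjusted p under 0.05, beside 8.02% of all genes tested. Dpysl5, a collapsin response mediator protein of growing neurites, had 341.9, 387.9, 326.3 and 358.1 normalized counts in Anesthesia replicates 1 to 4 and 227.3, 286.6, 215.7 and 282.9 in Control replicates 1 to 4. Every Anesthesia mouse was above every Control mouse. The difference was 0.49 (log2; SE 0.115, limma unadjusted p = 0.00156, adjusted p = 0.565), and leaving out any single mouse gave 0.42 to 0.55. Mapt, the tau gene of axonal microtubules, differed by 0.16 (SE 0.067, limma adjusted p = 0.621), and Cd24a, a surface marker of neuroblasts, by -0.29 (SE 0.115, limma adjusted p = 0.620). With the choroid plexus covariate Mapt was at 0.10 (limma unadjusted p = 0.137) and Cd24a at -0.24 (limma unadjusted p = 0.0899), while Dpysl5 was at 0.51 (limma unadjusted p = 0.00323). The related microtubule gene Dclk1 was at 0.17 (SE 0.090), and the immature tubulin gene Tubb3 at 0.028 (SE 0.062). Most of these genes are made by mature neurons as well.

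**Figure D5:**
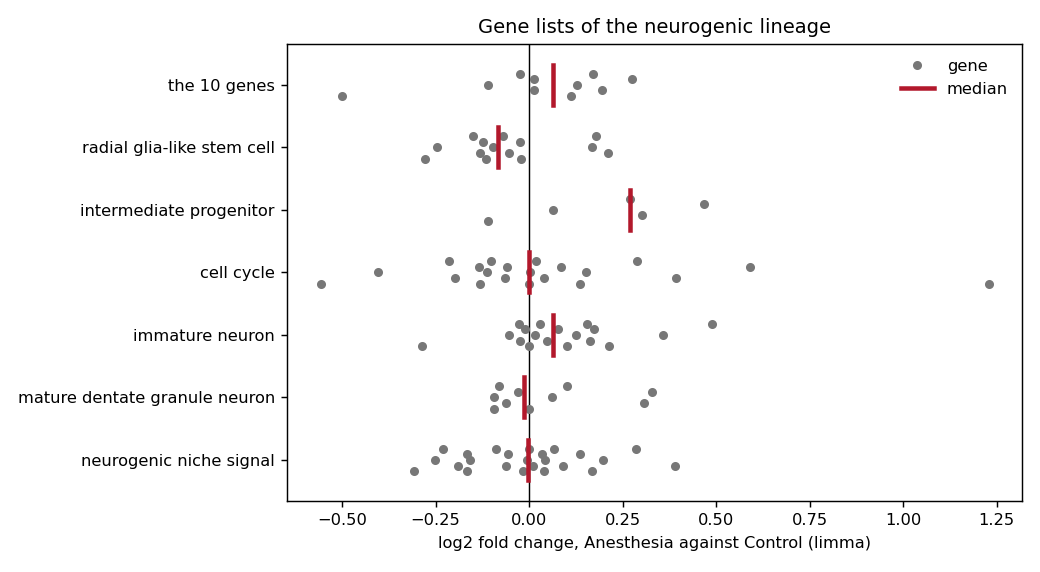
Log2 fold change of the Anesthesia against the Control group (x axis) for each gene (grey) of the 10 genes and of 6 lists, with the median of each list in red. The cell cycle, mature granule neuron and niche signal medians lie at 0.00, -0.015 and -0.003, and the radial glia-like list at -0.083. Those of the 10 genes and of the immature neuron list both lie at 0.063, and that of the intermediate progenitor list at 0.269.

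Signals of the neurogenic niche, which tell stem cells to divide or rest, were read from 24 genes, ordered here as ligands, receptors and targets. The median log2 fold change was -0.003, with 11 above 0 and 13 below, and 2 of 24 had an unadjusted p under 0.05, a share near the 8.02% of all genes tested. Among ligands and secreted inhibitors, the log2 difference was -0.16 for Bdnf (SE 0.181), 0.067 for Igf1 (SE 0.135) and -0.31 for the Wnt inhibitor Sfrp1 (SE 0.239). Among receptors, Igf1r had 1549, 1776, 2005 and 1818 normalized counts in Anesthesia replicates 1 to 4 and 1441, 1331, 1569 and 1502 in Control replicates 1 to 4, with only Anesthesia replicate 1 below a Control mouse (log2 fold change 0.29, SE 0.085, limma unadjusted p = 0.00646, adjusted p = 0.595). Ptch1, receptor and target of Hedgehog signalling, had 735.0 ± 58.8 against 640.2 ± 34.7 (SD, n = 4 each; log2 fold change 0.20, SE 0.078, limma adjusted p = 0.620), with groups that did not overlap, and 0.13 with GC and length correction (limma unadjusted p = 0.114). Among targets, Id1 and Id3, both induced by BMP signals, were at -0.23 (SE 0.148) and 0.14 (SE 0.077).

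Markers of other cells, among them cells that divide or that make SoxC genes, were compared in the same way. In 8 genes of subventricular and interneuron-type neuroblasts, of which Gsx2 was not in the table, 6 of 7 were below 0 with a median of -0.19, and Dlx2 had 11.9 ± 5.59 against 22.8 ± 13.0 normalized counts (SD, n = 4 each, unadjusted p = 0.123 from limma). In 8 genes of oligodendrocyte precursors, the main dividing cells outside the neurogenic zone, 5 were below 0 with a median of -0.044, the summed level was 5719 to 7012 in Anesthesia mice against 5516 to 6821 in Control mice, and Olig2 had the smallest p (log2 fold change 0.21, SE 0.144). The 8 mature oligodendrocyte genes had a median of -0.065, with the smallest p for Mog (-0.16, SE 0.196). Microglia genes (8, median 0.047; P2ry12 0.16, SE 0.081, groups not overlapping), endothelial genes (8, median -0.007; Kdr -0.17, SE 0.088) and blood genes (5, median -0.23; Hba-a2 -0.24, SE 0.126) had no member with an unadjusted p under 0.05. Of all genes tested, 8.02% had such a p. The 10 choroid plexus genes were all below 0, with a median of -1.95, and Kcnj13 had the smallest p (-1.40, SE 0.658, limma unadjusted p = 0.0576). Of 6 ependymal genes 5 were tested, all below 0, with a median of -0.33, and Rarres2 was at -0.49 (SE 0.210, limma unadjusted p = 0.0402). The thalamus list of 7 genes, without Gbx2, which was not in the table, had a median of -0.16, with Tcf7l2 at -0.57 (SE 0.205, limma unadjusted p = 0.0189), and 10 pyramidal neuron genes had a median of -0.077, with Fibcd1 at -0.25 (SE 0.158). No gene in these lists had an adjusted p under 0.05 from limma. The part of these cells in the values of the 10 genes was not tested, beyond the fits with the choroid plexus and granule neuron lists given above.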

How the data were processed

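The authors ran Salmon (v1.1.0) against GRCm38, collapsed transcripts to genes with tximport in R (v3.5.3) and deposited counts normalized by DESeq2 (v1.30.1), a signal per gene and mouse that is not a read count. Tool names come from the submitters' processing notes and the paper, and the annotation release is not given in the sources used here. The paper names a stranded total RNA kit and the labels another TruSeq kit. The 8 columns were matched to the mice by group letter and number. At the step that stands for 1 read, 51.6% to 73.3% of low values (under 8) were whole reads to within 0.1. That share was too low to recover reads, and no count test was run.

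The 10 genes and all lists were chosen with earlier results of these data known. GENCODE M21 (GRCm38) named 20784 of 20802 identifiers. limma 3.58.1 in R 4.3.3 was fitted with a mean-variance trend to log2(value + 1), and 1937 genes with a mean under 10 were left out. P-values are two-sided, with Benjamini-Hochberg adjustment over all 18865 genes and 0.05 as the limit. The script was tested on simulated data. Correlations over mice were tested with exact permutations. In each other list, up to 4 genes with an unadjusted p under 0.05 or else the gene with the smallest p, and genes with separate groups, are named, together with the 5 genes most like Dcx and like Mki67. Bdnf, Igf1, Sfrp1, Id1, Id3, Pcna, Mcm6, Dclk1, Tubb3, Prox1, Dsp and Drd2 were named after their values were seen. Alternatives were other scalings, filters and pseudocounts, limma voom, GC and length correction, a replicate block, covariates and leaving out each mouse. Samples numbered within a group were taken as separate mice. The labels do not state this, but the paper gives 4 mice for each group. The p-values of the group comparison therefore set the difference between the groups against the spread between these samples, with a variance that limma moderates over all genes. No library was a copy of another, since log2 ratios between libraries had an SD of at least 0.45.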

Additional observations from a re-analysis of the deposited data

Results flagged for a closer look

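Of 118 groups of 4 mice examined (the 10 genes, the other named genes and the list medians, in each group), 5 held a mouse far from the other 3, and about 5.9 would by chance. None of the 10 genes was among them. Thrsp had 531.6 normalized counts in Control replicate 3 against 464.2 to 474.7 in the other Control mice. Kcnj13 had 304.6 in Anesthesia replicate 1 against 45.3 to 56.6 in the other Anesthesia mice, and that mouse was also the one of its group with a high choroid plexus list. Tcf7l2 had 39.5 in Anesthesia replicate 4 against 35.7 to 36.2. On the log2 scale relative to the Control mean, Anesthesia replicate 3 stood at 0.147 for the immature neuron list against 0.063 to 0.073 in the other Anesthesia mice, and at 0.076 for the astrocyte list against -0.065 to -0.05.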

How the results depend on the processing

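The number of the 10 genes with an unadjusted limma p under 0.05 was 0 with upper quartile scaling, the replicate block, GC and length correction with that block, and the choroid plexus covariate. It was 1 in the other settings over all 8 mice, namely Calb2, except with the mature granule neuron covariate, where it was Dcx (limma unadjusted p = 0.0484) and not Calb2 (limma unadjusted p = 0.0547); without 1 mouse it ran from 0 to 2 (2 without Control replicate 1, Dcx and Sox11, and Dcx in place of Calb2 without Anesthesia replicate 2). The number of all genes with an adjusted p under 0.05 was 0, except that it ran from 0 to 2 without 1 mouse (2 without Control replicate 1). Replicate numbers did not pair the mice (correlations -0.242, -0.109, -0.182 and 0.019), and with the block 5.75% of all genes had an unadjusted p under 0.05.

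Directions turned for Igfbpl1 (-0.011 with GC and length correction, with or without the block, -0.092 with the choroid plexus and -0.065 with the mature granule neuron covariate, which was chosen after seeing the data), for Mki67 (-0.048, -0.048, -0.097 and -0.004 in the same order) and for Mog (0.034 with the choroid plexus covariate), and the cause was not tested. Without 1 mouse the log2 difference ran from -0.092 to 0.046 for Sox4, -0.301 to 0.057 for Neurod1, -0.21 to 0.544 for Eomes, -0.279 to 0.36 for Igfbpl1, -0.065 to 0.144 for Mki67 and -0.018 to 0.455 for Draxin, and the median from 0.03 to 0.305 for the intermediate progenitor list, -0.181 to 0.187 for the mossy cell list, -0.079 to 0.185 for the 10 genes and -0.146 to 0.186 for the mature granule neuron list. Eomes and Draxin could not be tested with at least 10 in every library. In the other lists 15 genes had an unadjusted limma p under 0.05, beside 8.02% of all genes tested. Whether these 15 are more than that share of the genes in the lists was not tested, and the count is not read as an excess. Of these 15, 10 were still under it with GC and length correction, where the share of all genes was 6.83%. The replicate block left 9 (5.75% of all genes), and the choroid plexus covariate left 4 (4.54%). Without 1 mouse 7 to 11 were left, beside 5.64% to 10.7% of all genes. Thrsp, Dpysl5 and Igf1r were under it in every setting run. The 15 were picked by their p, and how many would stay under 0.05 by chance was not tested. No alternative moved the median of all genes by 0.1 or more. Eomes and Draxin rest on the fewest reads of the 10 genes.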
